A study of Mus musculus with 384 samples.

Results

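*Peli1*, *Cul2*, *Commd1*, *Stambpl1* and *Psmb3* are 5 of the 69 assays of a targeted mouse brain panel, and were taken as the rows of the table whose identifier starts with one of these symbols. They are the panel's ubiquitin and proteasome genes outside a further 4 assays, *Nedd4*, *Nedd4l*, *Ube2g2* and *Vhl*, which are described only for comparison. The study describes a panel built from mouse counterparts of genes whose glucocorticoid response and psychiatric risk variants are linked in people. It reports fewer genes than the 69 assays here and another number of samples that passed its filters, so not every assay can be traced to that list. The study asked how early-life and adult social experience change the expression of such genes across the brain. The samples were micropunches, small cylinders of frozen tissue, from 12 regions of 32 male Balb/c mice, 384 samples in all, of which 380 have values. The labels put 8 mice in each of 4 groups, MS naive, MS inject, Co naive and Co inject, and give every sample the same strain, sex and an age of postnatal day 9, whereas the study describes adult mice. The study names its groups by rearing and by adult social housing, and neither source pairs those names with the label groups, so that no value is given for a condition of the study. The region labels are AMY, BNST, CER, PFC, PVN, Pit and the dorsal (d) and ventral (v) CA1, CA3 and DG. The study lists Nac where the labels list Pit.

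Ubiquitin is a small protein that ligases attach to other proteins, in chains that can send the target to the proteasome or change its signalling and traffic. Deubiquitinases remove it again, and the proteasome, a barrel of stacked rings capped by regulatory particles, unfolds and degrades the tagged protein. In neurons the same system helps to turn over synaptic proteins and receptors. *Peli1* encodes a RING-type ligase that acts in Toll-like and interleukin receptor signalling, and *Cul2* encodes the scaffold of a cullin ligase that uses elongins and *Vhl* to mark the hypoxia-inducible factors. *Commd1* encodes a COMM-domain protein known from copper handling, from endosomal sorting and from the control of NF-kappaB turnover. *Stambpl1* encodes a zinc-dependent deubiquitinase that works at endosomes, and *Psmb3* encodes a subunit of the beta ring of the proteasome core that has no catalytic site itself.

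Each assay reads a short stretch of a transcript, and the assay identifiers carry a RefSeq transcript and a pair of consecutive numbers. These numbers were read here as the exons that flank the assayed junction, which the sources do not state. The order of the numbers followed the strand of the gene in 68 of 68 assays with a transcript in GENCODE M21 (genome build GRCm38, the assembly also called mm10). The numbers lay within the exon count of the transcript in only 66 of these 68. *Peli1* lies on chromosome 11 from 21091291 to 21150323 on the plus strand, and its assay was placed across exon 6 (21147258 to 21147446) and exon 7 (21147957 to 21150323) of 7. *Psmb3*, on chromosome 11 from 97703399 to 97713500 on the plus strand, was read across exon 5 (97712437 to 97712531) and exon 6 (97713393 to 97713500) of 6. *Commd1*, on chromosome 11 from 22896136 to 22982382 on the minus strand, was read across exon 1 (22982079 to 22982382) and exon 2 (22956411 to 22956692) of 3. *Stambpl1*, on chromosome 19 from 34192229 to 34240333 on the plus strand, was read across exon 9 (34238776 to 34238888) and exon 10 (34239503 to 34239602) of 11. These 4 junctions and that of *Cul2* lie in coding sequence. The stretches below, from the GENCODE M21 transcripts, show the part of the message that 4 of the assays follow on this reading of the numbers. They give 30 bases to each side of the junction, 5′ to 3′, with the downstream exon in capitals.
Peli1: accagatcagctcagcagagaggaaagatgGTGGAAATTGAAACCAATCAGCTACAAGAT
Commd1: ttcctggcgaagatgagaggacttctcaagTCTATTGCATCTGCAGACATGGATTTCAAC
Stambpl1: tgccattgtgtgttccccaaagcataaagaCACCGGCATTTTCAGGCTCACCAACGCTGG
Psmb3: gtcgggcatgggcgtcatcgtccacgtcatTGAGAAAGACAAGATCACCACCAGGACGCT
Since each assay has its own primers, values were compared between samples for 1 gene and not between genes.

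The values are reads per assay divided by a size factor of the sample, called the normalized value below. Within each sample they were whole multiples of 1 step, and if that step is 1 read the libraries held 12898 to 261007 reads, with a median of 139846. All 5 genes were above 0 in all 380 samples, with at least 28 reads for *Peli1* and at least 104 for each of the other 4. In 6 of the 12 region labels the samples fell into separate ranges of *Anxa2* or *Ociad2*. *Anxa2* was either at most 298 or at least 1901 in the samples labelled Pit, dDG and vDG, with 16 of 32, 8 of 32 and 7 of 31 samples in the upper range. *Ociad2* was either at most 843 or at least 1750.1 in CER, dCA3 and vCA3, with 24, 24 and 16 of 32 samples in the upper range. The panel holds no list of genes that define a brain region, so whether each of these 6 labels stands for 1 tissue was not tested, and the main counts are also given without them. In AMY and PFC, among the other 6 labels, *Rbm4* stood apart in 4 of 32 samples each, at most 5.07 against at least 27.8 in AMY and 0 against at least 29.3 in PFC, and counts without these 8 samples are given as well. By which labels most often stand side by side in the columns of the table, the 12 labels form 4 sets of 3. The sets are AMY, BNST and PFC, CER, dCA3 and vCA3, PVN, dCA1 and vCA1, and Pit, dDG and vDG. They are not unbroken blocks, since AMY, for example, stood next to BNST 15 times, to PFC 11 times and to PVN 4 times. The study prepared its libraries on 4 plates of 3 regions each, and which regions shared a plate is not given in the sources used here. If the sets are the plates, a difference between sets and a difference between plates cannot be told apart, so pairs of labels within a set are counted separately.

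All 5 genes were found in every region label. Between the label with the highest and the label with the lowest median, the ratio of medians ran from 1.44 for *Cul2* to 2.10 for *Psmb3*. For each gene the highest label, the lowest label or both had separate ranges of *Anxa2* or *Ociad2*. Among the other 6 labels the ratio was 1.54 for *Peli1* (PFC over vCA1), 1.24 for *Stambpl1* (vCA1 over AMY), 1.18 for *Cul2* (dCA1 over PVN), 1.16 for *Psmb3* (PVN over BNST) and 1.13 for *Commd1* (vCA1 over PVN). On the log2 scale these differences were 0.68 (SE 0.13, adjusted p = 2.74e-06), 0.40 (SE 0.09, adjusted p = 3.32e-05), 0.12 (SE 0.10, adjusted p = 0.345), 0.04 (SE 0.12, adjusted p = 0.807) and 0.17 (SE 0.08, adjusted p = 0.0645) in limma, so those of *Cul2* and *Psmb3* did not pass the threshold of 0.1. Along each gene's order of the 12 labels 6 of 55 steps between neighbours passed the test over the 5 genes, where 13.8% did over all assays. Some of these differences move with the scaling of the samples, and values scaled to the same total per sample are given where they do. In punches of whole tissue, fewer cells of a type and less RNA per cell cannot be told apart.

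**Figure D1:**
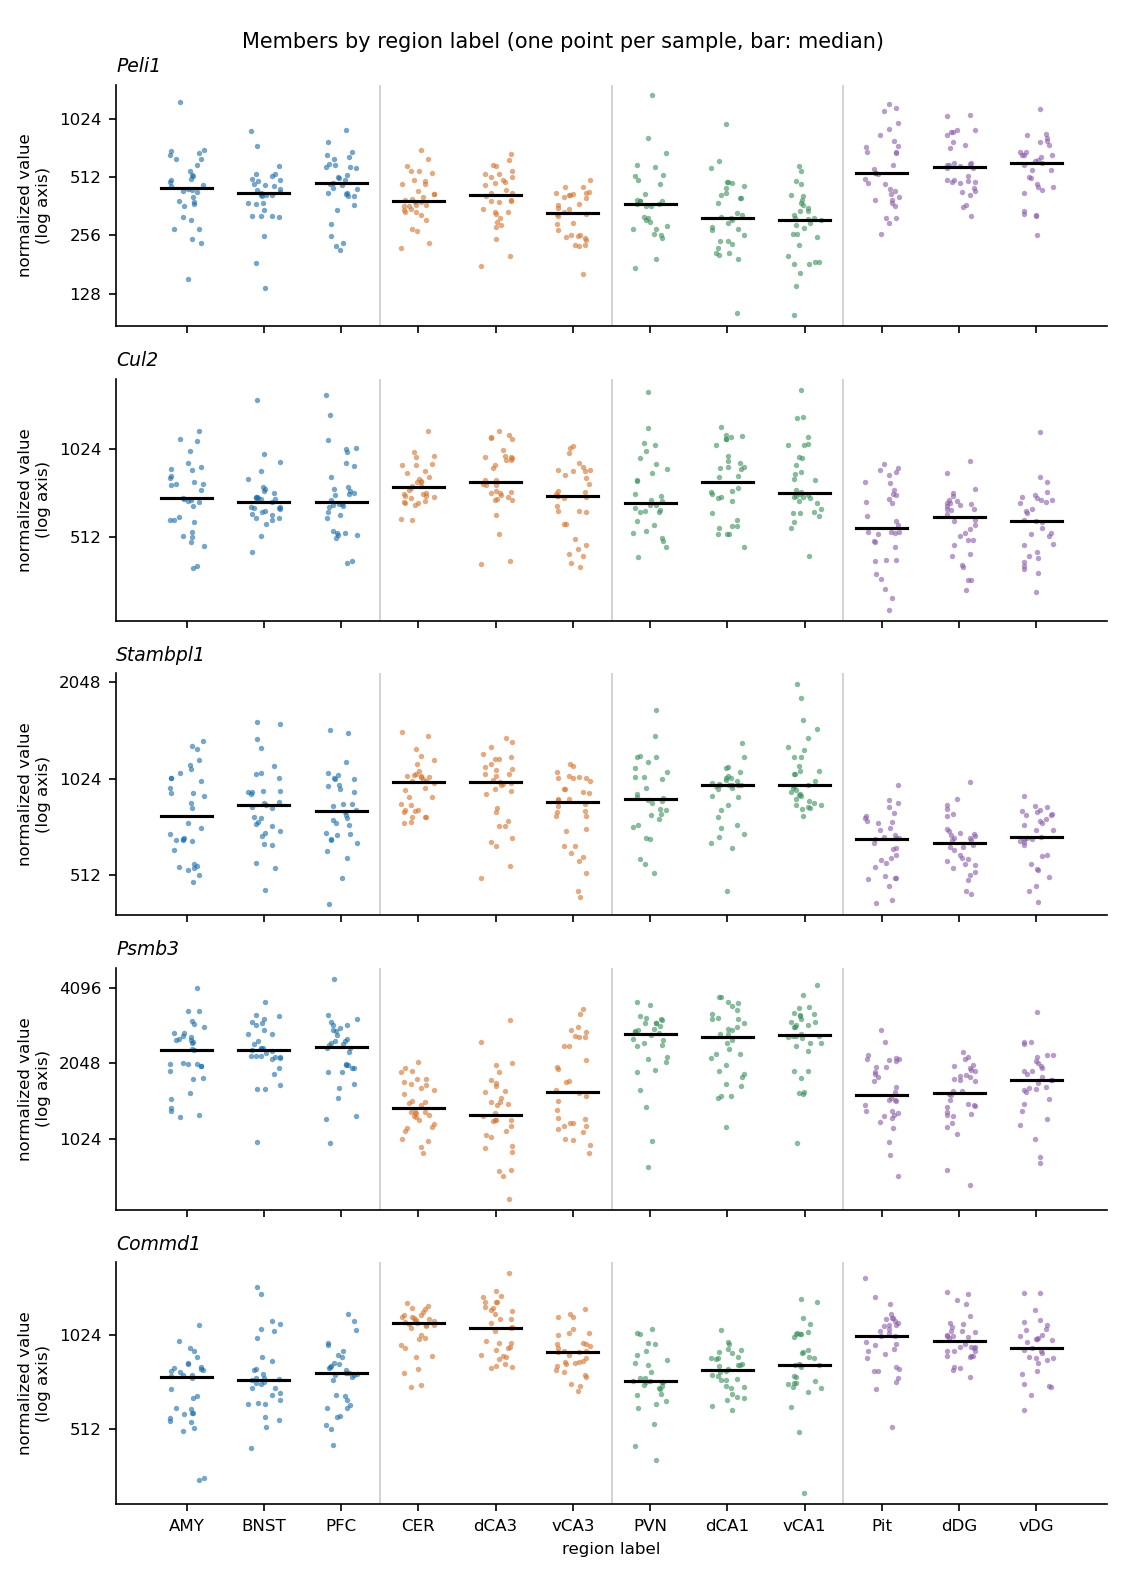
Normalized value of each gene (log axis) by region label, with 1 point per sample, a bar at the median, and grey lines and colours that mark the 4 sets of 3 labels. The medians of *Psmb3* lie at 2313 or above in AMY, BNST, PFC, PVN, dCA1 and vCA1 and at 1758 or below in the other 6 labels.

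*Peli1*, the RING-type ligase gene, had its highest medians in the labels Pit, dDG and vDG. Its median normalized value (lowest to highest sample) was 605 (257 to 1152) in vDG, 580.4 (324 to 1072) in dDG and 537 (261 to 1226) in Pit. Of the other sets, AMY, BNST and PFC came next, at 475 (215 to 902) in PFC, 451 (152 to 1257) in AMY and 423 (137 to 883) in BNST. In the labels CER, dCA3 and vCA3 the medians were 417 (178 to 672) in dCA3, 387 (221 to 709.6) in CER and 335 (162 to 494) in vCA3. In PVN, dCA1 and vCA1, the last of which had the lowest median of all, they were 374 (174 to 1357) in PVN, 317 (101 to 965) in dCA1 and 309 (98.9 to 588) in vCA1. vDG exceeded vCA1 by 0.98 on the log2 scale (SE 0.13, adjusted p = 3.49e-11, n = 31 and 32 samples), by limma on log2(value + 1) across all assays with the mouse as a block and Benjamini-Hochberg adjustment, as in all comparisons of regions. The samples of the 12 labels overlapped throughout, and of the 11 neighbours in the order of medians 0 differed at an adjusted p under 0.1.

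*Cul2*, the cullin scaffold, had its lowest medians in the same 3 labels in which *Peli1* had its highest. The gene lies on chromosome 18 from 3382988 to 3436377 on the plus strand (GRCm38), and its assay was placed across exon 20 (3433994 to 3434110) and exon 21 (3434844 to 3436377) of 21. Its median was 601 (336 to 933) in dDG, 581 (332 to 1177) in vDG and 549 (288 to 911) in Pit. In the other 9 labels the medians lay close together, from 670.1 in PVN to 791 in dCA3. They were 791 (413 to 1182) in dCA3, 762 (588 to 1182) in CER and 706 (405 to 1053) in vCA3. They were 791 (473 to 1219.7) in dCA1, 724 (442 to 1640.0) in vCA1 and 670.1 (436 to 1619) in PVN. The ranges of these labels covered one another for the most part. The medians of the set with AMY were 696 (399 to 1188) in AMY, 676 (418 to 1581) in PFC and 674 (456 to 1521) in BNST. dCA3 exceeded Pit by 0.51 on the log2 scale (SE 0.10, adjusted p = 2.94e-06, n = 32 and 32 samples). Among neighbours in the order, 2 of 11 steps passed the test, vCA1 over vCA3 by 0.22 (SE 0.10, adjusted p = 0.0587) and PVN over dDG by 0.33 (SE 0.10, adjusted p = 0.00308). With all samples scaled to the same total they were 0.12 (adjusted p = 0.475) and 0.06 (adjusted p = 0.727) in limma.

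*Commd1* separated the sets in another way, with high medians in CER, dCA3, vCA3, Pit, dDG and vDG and low ones elsewhere. The medians were 1118 (699 to 1304) in CER, 1083 (804 to 1621) in dCA3 and 905 (676 to 1244) in vCA3. They were 1021 (519.6 to 1567) in Pit, 984 (755 to 1412) in dDG and 931 (587 to 1403) in vDG. All 6 of these medians were above those of the remaining labels, although the samples overlapped. The medians were 825 (318 to 1337) in vCA1, 792 (587 to 1067) in dCA1 and 728 (407 to 1076) in PVN. They were 773 (453 to 1198) in PFC, 752 (351 to 1107) in AMY and 734 (445 to 1462) in BNST. CER exceeded PVN by 0.52 on the log2 scale (SE 0.08, adjusted p = 5.74e-09, n = 32 and 30 samples), and by 0.84 with all samples scaled to the same total. 1 of 11 neighbouring steps passed the test, and it ran against the order of the medians, with AMY at -0.17 (SE 0.08, adjusted p = 0.0696) relative to BNST on the scale of log2 means. Scaled to the same total it was -0.04 (adjusted p = 0.798) in limma.

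*Stambpl1*, the deubiquitinase gene, was lowest in Pit, dDG and vDG, as *Cul2* was. There it had medians of 673 (422 to 905) in vDG, 666 (419 to 978) in Pit and 648 (449 to 1001) in dDG. In CER, dCA3 and vCA3 the medians were 999 (745 to 1428) in CER, 997 (503 to 1367) in dCA3 and 865 (439 to 1140.4) in vCA3. In PVN, dCA1 and vCA1 they were 978 (785 to 2012) in vCA1, 976 (456 to 1323) in dCA1 and 886 (521 to 1679) in PVN. The labels AMY, BNST and PFC took the middle of the order. Their medians were 845 (462 to 1541) in BNST, 812 (417 to 1453) in PFC and 786 (488 to 1337) in AMY. CER exceeded dDG by 0.59 on the log2 scale (SE 0.09, adjusted p = 7.6e-10, n = 32 and 32 samples). Of the 11 neighbouring steps 2 passed the test, vCA1 over dCA1 by 0.22 (SE 0.09, adjusted p = 0.0275) and AMY over vDG by 0.25 (SE 0.09, adjusted p = 0.0141). Scaled to the same total they were 0.39 (adjusted p = 0.00252) and 0.15 (adjusted p = 0.29) in limma.

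*Psmb3*, the proteasome core subunit, had 6 labels with higher and 6 with lower medians. The higher medians were 2685 (792 to 3598) in PVN, 2658 (983 to 4203) in vCA1 and 2605 (1138 to 3764) in dCA1. They were 2388 (986 to 4444) in PFC, 2325 (1251 to 4078) in AMY and 2313 (996 to 3598) in BNST. None of the 5 steps between neighbours among these labels passed the test. The lower medians were 1758 (819 to 3285) in vDG, 1563 (673 to 2269.6) in dDG and 1533 (728 to 2769) in Pit. They were 1582 (897 to 3358) in vCA3, 1357 (896 to 2082) in CER and 1278 (592 to 3048) in dCA3. PVN exceeded dCA3 by 0.87 on the log2 scale (SE 0.12, adjusted p = 1.58e-11, n = 30 and 32 samples), and by 0.54 with all samples scaled to the same total. The single neighbouring step of 11 that passed the test was the one from the higher to the lower labels, BNST over vDG by 0.44 (SE 0.12, adjusted p = 0.000701), or 0.21 (adjusted p = 0.0629) scaled to the same total. Some samples of the lower labels, such as the highest of vCA3 and vDG, lay above the medians of the higher ones.

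Of the 66 pairs of region labels, 43 were called for *Peli1*, 32 for *Cul2*, 43 for *Commd1*, 41 for *Stambpl1* and 42 for *Psmb3*, at an adjusted p under 0.1 over all assays and pairs. Over all 69 assays 51.2% of the tests were called. *Cul2* stood just below that share and the other 4 genes above it. Most of the calls joined labels of different sets. Within the sets, 12 pairs, the calls were 3 for *Peli1*, 1 for *Cul2*, 4 for *Commd1*, 4 for *Stambpl1* and 2 for *Psmb3*, where the panel had 16.9%. Between the sets, 54 pairs, they were 40, 31, 39, 37 and 40, where the panel had 58.8%.

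**Figure D2:**
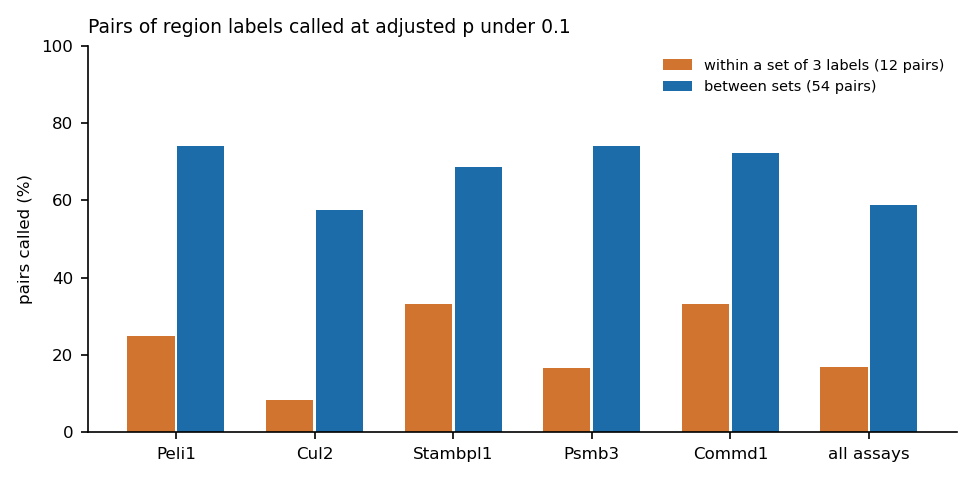
Percent of pairs of region labels called at an adjusted p under 0.1 for each gene and for all 69 assays, within the sets of 3 labels (12 pairs a gene) and between them (54 pairs a gene). For each gene the share is lower within the sets than between them.

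The pairs called within sets show where a gene differed between labels that may have shared a plate. *Psmb3* was lower in dCA3 than in vCA3, with a log2 difference of -0.36 (SE 0.11, adjusted p = 0.00529), and lower in CER than in vCA3, with one of -0.26 (SE 0.11, adjusted p = 0.0476). *Commd1* was higher in dCA3 than in vCA3, by 0.25 (SE 0.08, adjusted p = 0.00562), and in CER than in vCA3, by 0.22 (SE 0.08, adjusted p = 0.0144). All these labels are among those with separate ranges of *Ociad2*. *Stambpl1* was higher in CER than in vCA3 by 0.26 (SE 0.09, adjusted p = 0.00791) and *Peli1* by 0.30 (SE 0.13, adjusted p = 0.0532). *Stambpl1* was higher in dCA3 than in vCA3 by 0.22 (SE 0.09, adjusted p = 0.0294) and *Peli1* by 0.31 (SE 0.13, adjusted p = 0.0431). With the values as deposited, *Cul2* was called within a set for that pair alone, with dCA3 higher by 0.24 (SE 0.10, adjusted p = 0.0383). In the set that holds PVN, dCA1 and vCA1, *Peli1* was higher in PVN than in vCA1 by 0.42 (SE 0.13, adjusted p = 0.00628), but by 0.25 (adjusted p = 0.196) with all samples scaled to the same total, which is not past the threshold. There *Stambpl1* was lower in PVN than in vCA1, with a log2 difference of -0.23 (SE 0.09, adjusted p = 0.0236), or -0.40 (adjusted p = 0.00224) scaled to the same total. *Commd1* was also lower in PVN than in vCA1, with a difference of -0.17 (SE 0.08, adjusted p = 0.0645), or -0.34 (adjusted p = 0.00261) scaled to the same total. The 2 other calls within sets, of *Stambpl1* in dCA1 and vCA1 and of *Commd1* in AMY and BNST, are given above. Scaled to the same total, further pairs within sets passed in limma. *Cul2* in PVN relative to vCA1 was at -0.31 (adjusted p = 0.0362) and *Commd1* in dCA1 relative to vCA1 at -0.25 (adjusted p = 0.0277). *Peli1* in BNST relative to PFC was at -0.35 (adjusted p = 0.0561), and the pairs of *Psmb3* are given below.

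Among the 15 pairs of the 6 labels without separate ranges of *Anxa2* or *Ociad2*, 8 were called for *Peli1*, 6 for *Stambpl1*, 4 for *Commd1*, 1 for *Cul2* and 0 for *Psmb3*, against 24.3% for the panel. Without the 8 samples low in *Rbm4* they were 8 for *Peli1*, 5 for *Stambpl1*, 2 for *Commd1*, 1 for *Cul2* and 1 for *Psmb3*, against 25.6%. In a fit of these 6 labels alone the calls were 6 for *Peli1*, 4 for *Stambpl1*, 1 for *Commd1* and 0 for *Cul2* and *Psmb3*, where that fit called 15.5% for the panel. With the values as deposited, all 42 called pairs of *Psmb3* thus held at least 1 label with separate ranges of *Anxa2* or *Ociad2*. Scaling every sample to the same total moved the median of all assays by up to 0.34 on the log2 scale between a pair of labels. Under that scaling 54% of the tests of all assays were called. Of the 32 called pairs of *Cul2*, 13 were lost, 10 others were gained and 1 called pair changed direction. *Stambpl1* lost 9 and gained 5, *Psmb3* lost 3 and gained 5, and *Peli1* and *Commd1* each lost 2 and gained 5, and no called pair of these 4 genes changed direction. Among the same 15 pairs, 9 were then called for *Peli1*, 5 for *Stambpl1*, 4 for *Commd1*, 2 for *Cul2* and 5 for *Psmb3*, against 27.6% for the panel. The 5 of *Psmb3* were vCA1 over each of the other 5 labels, such as PVN at -0.27 (adjusted p = 0.0156) and dCA1 at -0.24 (adjusted p = 0.0311) relative to vCA1 in limma, so the count of 0 for *Psmb3* above depends on the scaling and on the samples low in *Rbm4*.

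Within the labels Pit, dDG and vDG the medians of *Peli1*, *Cul2*, *Stambpl1* and *Commd1* differed with the range of *Anxa2*, which is given as a description since *Anxa2* is itself a measured value. *Peli1* ran over 472 to 1226 (median 737, n = 16) in the Pit samples of the lower range and over 261 to 592 (median 399, n = 16) in those of the upper range. *Cul2* ran over 338 to 911 (median 682, n = 16) and 288 to 795 (median 510.2, n = 16) in the same samples. The medians of both genes were lower where *Anxa2* was high, and the samples overlapped. The same order of medians held for *Peli1*, *Cul2* and *Stambpl1* in dDG and vDG. In vDG, *Peli1* had a median of 657 in the 24 samples of the lower range and 329.6 in the 7 of the upper range. *Commd1* had the opposite order in Pit, dDG and vDG, with medians of 936 and 1099.7 in dDG. *Psmb3* had no single order, with lower and upper medians of 1456 and 1712 in Pit, 1538 and 1717 in dDG and 1784 and 1706 in vDG. With respect to *Ociad2*, *Commd1* in CER ran over 699 to 1217 (median 838, n = 8) in the lower range and 875 to 1304 (median 1141, n = 24) in the upper range. In dCA3 its medians had the same order, 949 and 1180.0, and in vCA3 the opposite one, 921 and 866. *Psmb3* in vCA3 had a median of 1288 in the 16 samples of the lower range and 2193 in the 16 of the upper range, again with overlap, whereas in CER the medians were 1343 and 1357. The part of these ranges in the differences between region labels was not tested beyond leaving the 6 labels out.

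No gene of the 5 differed between the label groups in a region at the threshold used. The terms tested by limma in each region were status (MS minus Co), injection (inject minus naive) and their interaction, with adjustment over the assays of the region. Of 60 tests of the 5 genes per term, 0 were called for status, 0 for injection and 0 for the interaction, against 0%, 0.121% and 0% of the 826 tests of all assays. At an unadjusted p under 0.05 the counts were 0, 3 and 3 of 60, against 2.66%, 3.75% and 2.3% of all assays. The medians of the 4 label groups in a region differed by a factor of 1.03 to 1.56, and in all 60 combinations of gene and region the ranges of the 4 groups overlapped. Neither was computed for the other assays, so nothing particular to these genes is read from it.

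The smallest unadjusted p belonged to *Psmb3* in vDG, a label with separate ranges of *Anxa2*. Its lowest, median and highest values there were 1630.4, 1970.1 and 2494 in the 7 mice labelled Co naive and 871, 1506 and 1902 in the 8 labelled Co inject. They were 819, 1669 and 2485 in the 8 labelled MS naive and 1577, 1937 and 3285 in the 8 labelled MS inject. The median of the inject samples was thus the lower one among Co and the higher one among MS, with overlap. The interaction was 0.84 (SE 0.30, adjusted p = 0.283) on the log2 scale, and 0.87 (adjusted p = 0.114) with the range of *Anxa2* in the limma fit. With all samples scaled to the same total it was 0.54 (adjusted p = 0.34) in limma. *Commd1* in AMY, where 4 samples were low in *Rbm4*, followed. Its values were 351, 625 and 828 in Co naive, 544, 840.3 and 985 in Co inject, 357, 611 and 789.8 in MS naive and 571, 764 and 1107 in MS inject, with 8 mice in each. The medians of both inject groups were above those of both naive groups, while the ranges overlapped. The injection term was 0.34 (SE 0.13, adjusted p = 0.283) in limma, and 0.28 (adjusted p = 0.645) without the samples low in *Rbm4*. *Cul2* in AMY had an injection term of 0.30 (SE 0.14, adjusted p = 0.428) and *Commd1* in vCA3 one of 0.18 (SE 0.08, adjusted p = 0.718). The interaction was -0.33 (SE 0.15, adjusted p = 0.924) for *Cul2* in CER and -0.83 (SE 0.40, adjusted p = 0.927) for *Peli1* in vCA1. None of these 6 passed the limma adjustment. With 5 principal components of the residuals as covariates, which leave the changes as they are and lower the spread left over, limma called injection for *Cul2*, *Psmb3* and *Commd1* in vCA3 and the interaction for *Psmb3* in Pit and vDG. That is 0 of 60 tests for status, 3 for injection and 2 for the interaction, where the same fit called 3.03%, 4.6% and 3.51% of all assays, and Pit, vDG and vCA3 all have separate ranges of *Anxa2* or *Ociad2*.

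Over the regions of each mouse together, no gene of the 5 differed between the label groups at the threshold either. For each mouse the mean over its samples of log2(value + 1) less the mean of the region label was tested with limma in 32 mice, 8 in each label group. 0 of the 5 genes were called for status, 0 for injection and 0 for the interaction, against 0%, 1.45% and 0% of the 69 assays. At an unadjusted p under 0.05 the count was also 0 of 5 for each term, against 1.45%, 5.8% and 1.45%. The status term was 0.01 (95% interval -0.09 to 0.12, adjusted p = 0.976) for *Peli1*, -0.03 (95% interval -0.11 to 0.06, adjusted p = 0.976) for *Cul2* and 0.03 (95% interval -0.04 to 0.09, adjusted p = 0.976) for *Commd1*. It was -0.02 (95% interval -0.11 to 0.06, adjusted p = 0.976) for *Stambpl1* and 0.03 (95% interval -0.06 to 0.11, adjusted p = 0.976) for *Psmb3*. The injection term was 0.05 (95% interval -0.01 to 0.12, adjusted p = 0.834) for *Commd1*, -0.05 (95% interval -0.13 to 0.04, adjusted p = 0.981) for *Psmb3* and -0.02 (95% interval -0.10 to 0.07, adjusted p = 0.981) for *Stambpl1*. For *Peli1* and *Cul2* it lay nearer to 0, with intervals of -0.11 to 0.10 and -0.09 to 0.08. The intervals of the interaction were wider, at -0.29 to 0.12 for *Peli1*, -0.26 to 0.07 for *Cul2*, -0.26 to 0.08 for *Stambpl1*, -0.21 to 0.13 for *Psmb3* and -0.20 to 0.06 for *Commd1*. Without the 6 labels with separate ranges of *Anxa2* or *Ociad2*, 0 of 5 were again called for each term in limma, against 0% of the 69 assays for each, with wider intervals. Those of *Peli1* were then -0.21 to 0.14 for status, -0.12 to 0.24 for injection and -0.51 to 0.20 for the interaction. For status and injection the intervals of the other 4 genes lay between -0.21 and 0.24.

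**Figure D3:**
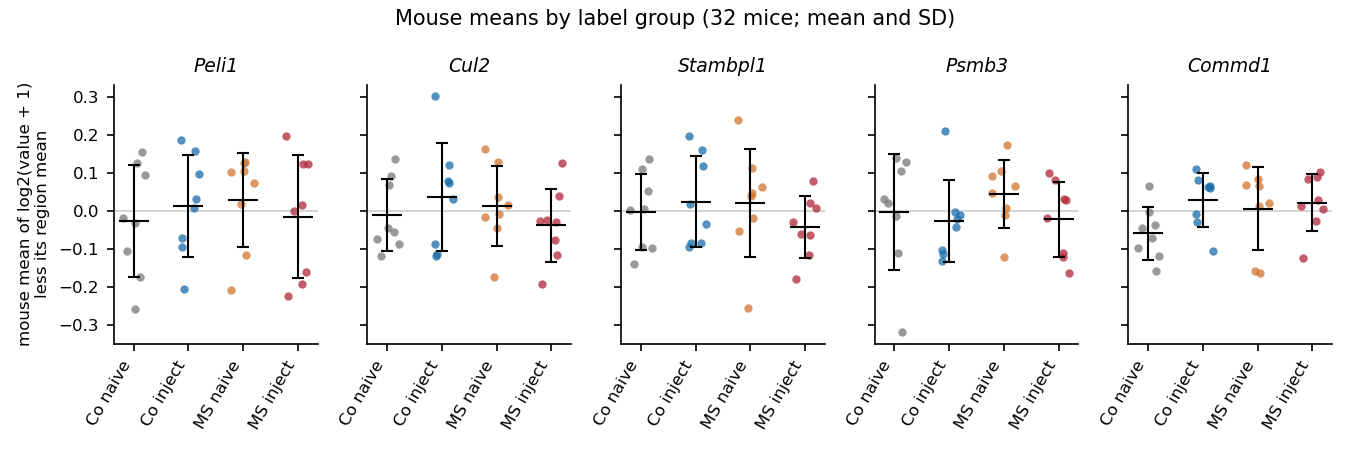
Mean over the regions of each mouse of log2(value + 1) less the mean of the region label, by label group, with 1 point per mouse and the mean and SD of 8 mice. The points of the 4 groups overlap for each gene, and the group means lie between -0.06 and 0.04.

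In the fits without further covariates none of the other ubiquitin genes of the panel was called for a label term either, and no difference between these and the 5 genes was tested. *Nedd4* and *Nedd4l* encode HECT-type ligases, *Ube2g2* encodes a conjugating enzyme of protein quality control at the endoplasmic reticulum, and *Vhl* encodes the substrate receptor of the ligase that *Cul2* supports. Of 48 tests per term in the regions, 0 were called for status, injection or the interaction in limma, with 2, 1 and 0 at an unadjusted p under 0.05, against the 2.66%, 3.75% and 2.3% of all assays. The smallest adjusted p for status was 0.1005 in limma, just over the threshold. With 5 principal components 1 test was called for status, 3 for injection and 1 for the interaction, against 3.03%, 4.6% and 3.51%. Over mouse means 0 of 4 were called for each term, and the injection term of *Ube2g2* was 0.15 (95% interval 0.02 to 0.28, adjusted p = 0.432). Of the 66 pairs of region labels, 49 were called for *Nedd4*, 42 for *Nedd4l*, 44 for *Ube2g2* and 27 for *Vhl*, where the panel had 51.2%.

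Within region labels, the normalized values of *Psmb3* and *Cul2* were negatively related. Pearson's r of log2(value + 1) was computed for the 10 pairs of the 5 genes across the mice of each label, with a two-sided permutation test of 100000 resamples and adjustment over all pairs of assays of the label. In the 6 labels without separate ranges of *Anxa2* or *Ociad2*, 19 of 60 tests were called, where 9.6% of the 13940 tests of all pairs of assays were. The 12 calls that involve *Psmb3* were all negative, of 24 tests, and the 7 calls among the other 4 genes were all positive, of 36. Over all assays 4.3% were called as negative and 5.29% as positive. The reads of a library are shared among all assays, so the values of a sample are not independent of each other, and the part of this in r was not tested. With all samples scaled to the same total 27 were called, 6 of them negative and 21 positive, where the panel had 12.6% in all, 3.97% negative and 8.59% positive. By Spearman's rho 13 of the 60 tests were called, 7 of 24 with *Psmb3* and 6 of 36 without it. The share of all pairs of assays called by rho was not computed.

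**Figure D4:**
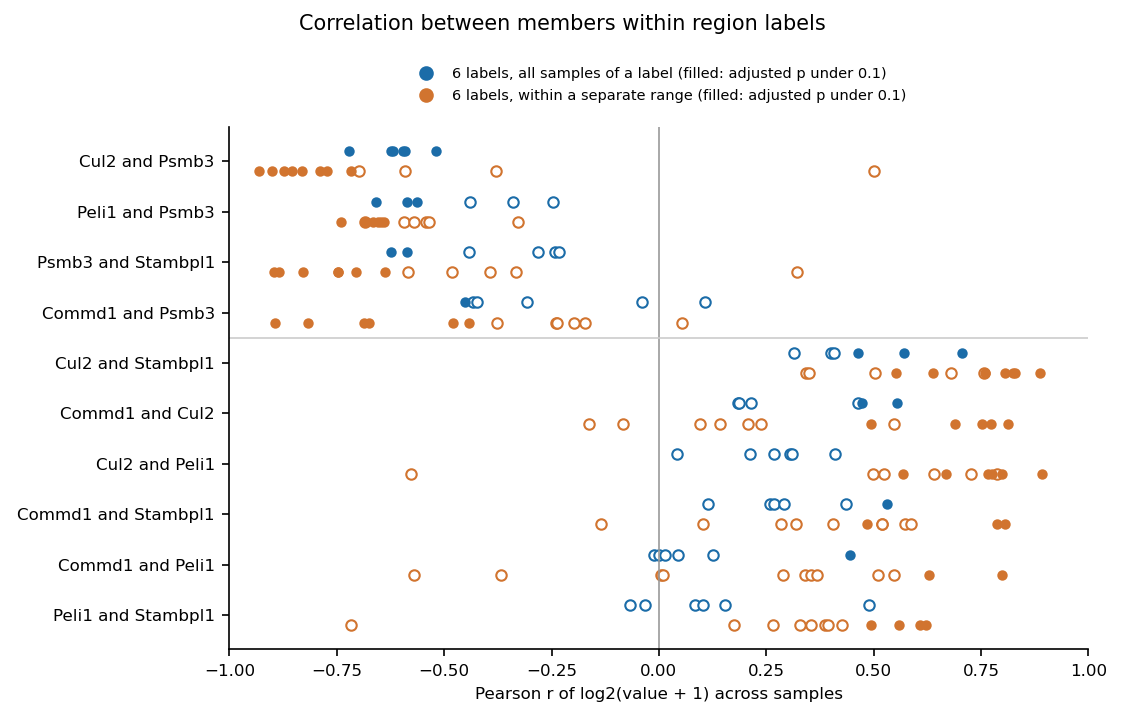
Pearson r of log2(value + 1) across samples for the 10 pairs of the 5 genes, with 1 point per region label (6 labels, blue) or per separate range of *Anxa2* or *Ociad2* within a label (12 ranges, orange) and filled points for an adjusted p under 0.1. The 4 pairs with *Psmb3*, above the line, lie mostly left of 0 and the other 6 mostly right of 0.

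*Cul2* and *Psmb3* were called in all 6 of these labels, of which the share of all pairs of assays called was 3.24% in AMY, 4.78% in PFC, 5.54% in BNST, 9.42% in dCA1, 14.3% in PVN and 20.5% in vCA1. In vCA1, r = -0.72 (p = 1e-05, adjusted p = 0.00104) across 32 mice by permutation, the smallest p that 100000 resamples can give, with rho = -0.65 (p = 3e-05, adjusted p = 0.00207) for Spearman's coefficient. In dCA1, r = -0.62 (p = 0.00028, adjusted p = 0.0113) by permutation, with rho = -0.59 (p = 0.00054, adjusted p = 0.0215). In AMY, r = -0.62 (p = 0.00012, adjusted p = 0.0195) by permutation, with rho = -0.57 (p = 0.00089, adjusted p = 0.0549). In these 3 labels the relation held without the 2 samples farthest from the median of *Cul2*, with r = -0.68, -0.59 and -0.59. In PVN, r = -0.59 (p = 0.00087, adjusted p = 0.0198) by permutation across 30 mice, with rho = -0.41 (p = 0.0237, adjusted p = 0.197), and r was -0.41 without 2 samples. In BNST, r = -0.60 (p = 0.00188, adjusted p = 0.0602) by permutation across 31 mice, with rho = -0.40 (p = 0.0256, adjusted p = 0.269). In PFC, r = -0.52 (p = 0.0023, adjusted p = 0.0663) by permutation across 32 mice, with rho = -0.41 (p = 0.0207, adjusted p = 0.255). In BNST and PFC r dropped to -0.23 and -0.26 without 2 samples, so that the relation rests on those samples. In BNST it was -0.30 without mouse 247, labelled Co inject, alone. In PFC and AMY another assay, *Rbm4*, was apart in 4 samples of each, and within the other 28 r was -0.41 in PFC (permutation, adjusted p = 0.326) and -0.63 in AMY (permutation, adjusted p = 0.0443). With every sample scaled to the same total r stayed below 0 in all 6 labels, from -0.50 in AMY to -0.17 in dCA1 (permutation, adjusted p = 0.614). The labels called were then 3 of 6, AMY, PFC and vCA1.

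In some labels the values of both genes moved with the depth of the library. Against log2 of the reads of the sample, r of *Psmb3* ran from -0.45 in AMY to 0.56 in PVN and r of *Cul2* from -0.64 in PVN to 0.22 in AMY, and r had opposite signs for the 2 genes in each of the 6 labels. Spearman's rho ran from -0.48 to 0.52 for *Psmb3* and from -0.56 to 0.21 for *Cul2*. By permutation, with adjustment over the 60 tests of the 5 genes in 12 labels, 4 of 6 values of r were called for *Psmb3* and 2 of 6 for *Cul2*. The other assays were not set against depth, so no share over the panel stands beside these counts. In vCA1 the call of *Psmb3* was lost by rank, since r was 0.41 (adjusted p = 0.0998 by permutation) and rho -0.10 (adjusted p = 0.704 by permutation), the same sign as rho of *Cul2* there (-0.08). In PFC a call of *Psmb3* was gained by rank, with r of 0.38 (adjusted p = 0.102 by permutation) and rho of 0.39 (adjusted p = 0.082 by permutation), so that 4 of 6 were called by rank as well. When the linear fit on log2 reads was taken out of both genes, r of *Cul2* and *Psmb3* stayed below 0 in 6 of 6 labels, from -0.70 in vCA1 to -0.36 in PVN, and 5 of 6 were called by permutation. The exception was PVN (adjusted p = 0.216 by permutation). Of all 60 tests 15 were then called, 10 with *Psmb3* and 5 without it, against 8.11% of all pairs of assays.

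**Figure D5:**
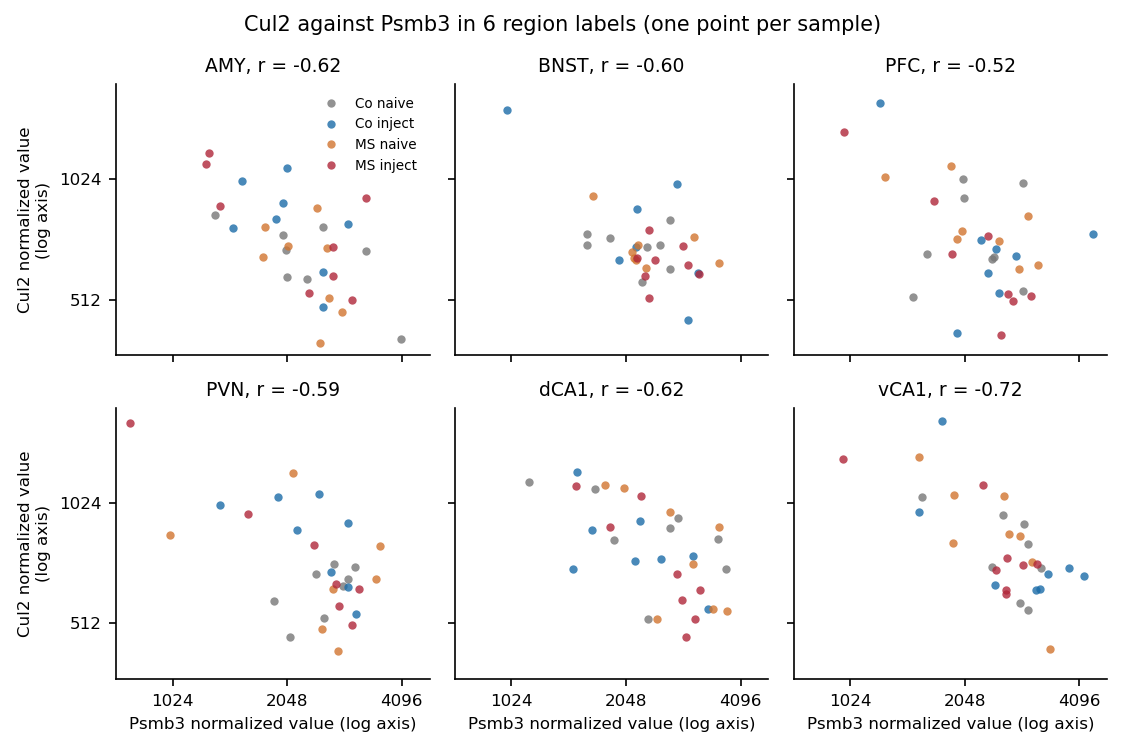
Normalized values of *Cul2* against *Psmb3* (both log axes) in the 6 region labels without separate ranges of *Anxa2* or *Ociad2*, with 1 point per sample and colours for the label groups. In vCA1, dCA1 and AMY samples with a high *Psmb3* value tend to have lower *Cul2* values. In PVN, BNST and PFC the relation was not called by rank, and in BNST and PFC it rests on 2 samples. In BNST and PVN 1 sample each stands apart at the upper left.

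Some pairs of *Psmb3* with *Peli1* and *Stambpl1* were also called as negative. For *Peli1* and *Psmb3*, r was negative in 6 of 6 labels (-0.66 to -0.25), and 3 were called by permutation, BNST, PVN and dCA1. In PVN it was -0.21 without 2 samples and rests on those samples. For *Psmb3* and *Stambpl1*, r was negative in 6 of 6 (-0.62 to -0.23), with 2 called, AMY and vCA1. Within the 28 AMY samples with higher *Rbm4* it was -0.55 (permutation, adjusted p = 0.11), which is not past the threshold. For *Commd1* and *Psmb3* it was negative in 5 of 6, with 1 called, PVN. With all samples scaled to the same total 2 of 6 were called for *Peli1* and *Psmb3* (BNST and PVN), 1 for *Psmb3* and *Stambpl1* (vCA1) and 0 for *Commd1* and *Psmb3*.

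*Cul2* and *Stambpl1* were positively related. Their r was positive in 6 of 6 labels (0.31 to 0.71) and called in 3, AMY, PVN and vCA1. In vCA1, r = 0.71 (p = 3e-05, adjusted p = 0.00152) by permutation, with rho = 0.51 (p = 0.00317, adjusted p = 0.0463), and r was 0.58 without 2 samples. With all samples scaled to the same total r ran from 0.44 to 0.83 and 5 of 6 were called. *Commd1* and *Cul2* had positive r in 6 of 6 labels, with 2 called, AMY and PVN. The other positive calls were *Commd1* with *Peli1* in PVN, at r = 0.45, and *Commd1* with *Stambpl1* in BNST, at r = 0.53. By rank neither was called, with rho of 0.33 (adjusted p = 0.359 by permutation) and 0.38 (adjusted p = 0.306 by permutation). With the linear fit on log2 reads taken out neither was called (adjusted p = 0.142 and 0.155 by permutation). Both ligase genes, *Peli1* and *Cul2*, had positive r in 6 of 6 labels (0.04 to 0.41), of which 0 were called by permutation.

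In the other 6 labels the correlations were taken within the separate ranges of *Anxa2* or *Ociad2*, in 12 subsets of 7 to 24 mice. There 54 of 120 tests were called, against 18.2% of all pairs of assays, with an exact permutation test in subsets of 8 or fewer. The 27 calls with *Psmb3* were again all negative and the 27 others all positive. Over all assays 8.22% were called as negative and 9.94% as positive. *Cul2* and *Psmb3* were called in 8 of 12 subsets, and their r was negative in 11 of 12. In the 16 vCA3 samples of the lower range, where 37.6% of all pairs of assays were called, r = -0.93 (p = 1e-05, adjusted p = 0.000301) by permutation, with rho = -0.86 (p = 6e-05, adjusted p = 0.00299), and r was -0.81 without 2 samples. The exception was the upper range of vDG, with r = 0.50 (p = 0.247, adjusted p = 0.597) by exact permutation across 7 mice. *Cul2* and *Stambpl1* had positive r in 12 of 12 subsets, 7 of them called. *Peli1* and *Cul2*, which were called in 0 of the 6 labels above, were called in 6 of 12 subsets, and the difference between the labels was not tested.

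Over all 380 samples, which share mice and region labels and are given as a description, each gene was set against the other 68 assays. The pair with the highest r for *Psmb3* was *Cct7* (r = 0.79, median within labels 0.74), a subunit gene of a cytosolic chaperonin, followed by *Hsp90aa1* (r = 0.77, median within labels 0.73), a chaperone gene. *Cul2* was most like *Stambpl1* (r = 0.66, median within labels 0.62) and then *Higd1a* (r = 0.56, median within labels 0.61), a mitochondrial protein gene induced by hypoxia. *Stambpl1* in turn was most like *Cul2* and then *Higd1a* (r = 0.47, median within labels 0.44). *Peli1* was most like *Ctnnb1* (r = 0.58, median within labels 0.70), the gene of beta-catenin, and then *Nedd4l* (r = 0.50, median within labels 0.18), a ligase gene of the comparison list. *Commd1* was most like *Mtmr3* (r = 0.44, median within labels 0.21), a lipid phosphatase gene, and then *Rps12* (r = 0.43, median within labels 0.56), a ribosomal protein gene. With all samples scaled to the same total r was 0.65 and 0.58 for these 2.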

How the data were processed

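RNA from micropunches was measured with a targeted sequencing panel. The authors filtered the reads, aligned them with BWA to the sequences of the assays, counted reads per assay and normalized the counts with DESeq2 size factors. The deposited values are this normalized signal for 69 assays in 380 samples, with the assembly mm10 named in the labels. In each sample all values were whole multiples of 1 step (tolerance 0.0001), which was taken as 1 read to give the depth. No pair of samples had identical values, and 4 of the 384 samples, 2 of PVN and 1 each of BNST and vDG, have none.

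The 5 genes and the lists were chosen with earlier results of these data known, and all 5 are named in every comparison, with the 2 most similar assays of each. Values were tested as log2(value + 1) with limma 3.58.1 in R 4.3.3, with Benjamini-Hochberg adjustment and a threshold of 0.1. Pairs of region labels were fitted on all samples with the mouse as a block and adjusted over 4554 tests, and the label terms were fitted in each region and on mouse means. The block is by design, since 1 mouse gave all its regions. Samples of the same mouse in different regions did not deviate together (median r over assays 0.00174, against -0.00204 for other mice of the group). Pearson and Spearman correlations used 100000 permutations in Python 3.11.15 with numpy 2.4.6, pandas 2.3.3 and scipy 1.17.1, or all permutations in subsets of up to 8 samples. Figures were drawn with matplotlib 3.10.9. The fits and the correlation test were tested on simulated data.

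Alternatives were pseudocounts of 0.1 and 10, only assays with a mean value of at least 10, values scaled to the same total, a threshold of 0.05, no block, fits without the 6 labels with separate ranges of Anxa2 or Ociad2, 5 principal components or the range as covariates, adjustment over all regions together, Spearman's rho, values less their group mean, and each mouse left out. Correlations with the linear fit on log2 reads taken out, fits without the 8 samples under 50000 reads, without the 8 AMY and PFC samples low in Rbm4 and within and between the sets of labels were chosen after seeing the data. Tests on reads recovered from the values were not run, since 69 assays are too few to check the recovery. Each mouse is 1 replicate.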

Additional observations from a re-analysis of the deposited data

Results flagged for a closer look

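Samples were compared within each combination of gene, region and label group, and a sample was set apart where its gap to the nearest of the others, over the whole range of the group, exceeded Dixon's critical value. Of 240 such combinations 14 held a sample apart, and of 20 groups of mouse means 1 did. The gaps within regions were taken on the normalized values and not on log2 values. Chance sets a sample apart in about 1 in 20 groups, so 14 of 240 is close to what chance gives.

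*Peli1* stood at 1257 in AMY of mouse 83 (MS inject, next sample 703), at 554 in CER of mouse 241 (Co naive, next 421) and at 1357 in PVN of mouse 105 (MS naive, next 526). *Cul2* had the most samples apart, all above the others of their group. It stood at 1581 in PFC of mouse 267 (Co inject, next 747), a library of 24672 reads, and at 1619 in PVN of mouse 85 (MS inject, next 958). It stood at 1640.0 in vCA1 of mouse 247 (Co inject, next 967), at 927 in BNST of mouse 103 (MS naive, next 735) and at 973 in CER of mouse 95 (MS inject, next 769.8).

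The vCA1 library of mouse 99 (MS inject) was apart for *Stambpl1* and for *Psmb3*, in opposite directions. *Stambpl1* was at 2012 there (next 1367) and *Psmb3* at 983 (next 2286), and the library was the shallowest of the 380, with 12898 reads. *Stambpl1* was low in dCA1 of mouse 239 (Co naive), at 717 (next 901).

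*Psmb3* was apart in mouse 235 (Co inject), at 3358 in vCA3 (next 1749) and in the mean over the regions of that mouse, at 0.21 on the log2 scale relative to the region means (next -0.00). In vDG of mouse 83 (MS inject) *Psmb3* was at 3285 (next 2221). *Commd1* stood at 1297 in dDG of mouse 249 (Co inject, next 1024).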

How the results depend on the processing

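Of 127 counts recomputed under other settings, 118 stayed within 1.5 times the reported count. Among the 6 labels without separate ranges of *Anxa2* or *Ociad2*, the fit of these labels alone called 0 pairs for *Cul2* (reported 1) and 1 for *Commd1* (reported 4), with fewer samples in the fit. There, scaling to the same total called 2 pairs for *Cul2* (reported 1) and 5 for *Psmb3* (reported 0), and leaving out the 8 samples low in *Rbm4* called 1 for *Psmb3* and 2 for *Commd1*. With 5 principal components as covariates, 3 injection and 2 interaction tests of the 5 genes were called (reported 0 and 0), with the changes as before and less spread left over. At an adjusted p of 0.05, 12 of the 60 correlations were called in place of 19. Without the mouse as a replicate block, 44 pairs of region labels were called for *Peli1*, 32 for *Cul2*, 41 for *Stambpl1*, 42 for *Psmb3* and 44 for *Commd1*, so the pairing moved no count by more than 1. Leaving out each mouse in turn gave 40 to 44 pairs for *Peli1*, 30 to 38 for *Cul2*, 39 to 44 for *Stambpl1*, 40 to 43 for *Psmb3* and 41 to 44 for *Commd1*, and 0 label terms throughout. Of 133 values of r for called pairs under other settings, 112 were counted as unchanged, 21 fell short of the threshold and 0 changed sign. Values without 2 samples or with 1 mouse left out were counted by sign alone and were not tested against the threshold. The fewest reads behind a value were 28, for *Peli1*. With 8 mice in a label group, changes within the intervals given could not be detected. The count tests in edgeR that were planned were not run.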
